A study of Rattus norvegicus with 20 samples.

Results

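The collagen family was followed across mRNA, genomic DNA and 8 histone marks in left ventricles of Dahl rats whose heart was either normal or failing. Its members were all genes of the expression array whose single symbol has the form Col, a chain number, a and a second number, and where a gene had several probe sets, the one brightest on average on the mRNA arrays stood for it. The rule found 41 collagen genes on 58 probe sets, of 14217 genes in all. They comprise 11 fibrillar collagens, 7 basement membrane collagens and 23 other collagens. The normal group were Dahl rats with a normal heart. The failed group were Dahl rats with congestive heart failure, and a high-sodium diet is named only in the label of the failed mRNA array. The age is 19 weeks on every label except that of the normal array for acetylated histone H4 (H4ac), which gives none and names genomic DNA as its source while its title, description and protocol name acetylated H4. It was used as H4ac. Each heart had 10 arrays, namely mRNA, genomic DNA before immunoprecipitation (pre-IP), and chromatin immunoprecipitates (ChIP) of acetylated histone H3 (H3ac) and H4ac, of K4me2 and K4me3, of K9me2 and K9me3, and of K20me3 and K27me2. For these 6 methylations the labels give the methylated lysine but not the histone. Each experiment used 1 left ventricle specimen, and the labels do not say whether the assays of a heart share it. With 1 array per assay and heart there is no replicate check, so every difference is between 2 arrays and carries no error, and no p-value is given.

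Collagens are the main structural proteins of the extracellular matrix, and each is built from 3 chains wound into a triple helix. Fibrillar collagens form the cross-banded fibrils that give the heart wall its tensile strength, and types I and III make up most of them in myocardium. Type IV collagen forms the sheet-like network of basement membranes around muscle cells and vessels. The remaining types include the beaded filaments of type VI, the hexagonal networks of type VIII, the fibril-associated collagens, which sit on fibril surfaces, and membrane-bound collagens. In the heart, fibroblasts make most fibrillar collagen, and its build-up is a known feature of hypertensive heart disease. Histone acetylation and K4 methylation are generally found at active genes, and K9, K20 and K27 methylation mostly at less active ones.

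mRNA levels are the deposited intensities rescaled so that the median of each array is 100, with values under a floor of 10 set to 10. A difference is log2 failed minus log2 normal, and one is counted when it reaches 1 in size, which is 2-fold. Counts cover genes that passed a level filter, set at the median of all probe sets for the mean of the arrays in question. Probes differ in brightness, so levels are compared within a gene and not between genes. The labels describe the RNA as that of left ventricular myocytes. Of 10 cardiomyocyte markers listed, 9 were measured and all 9 passed the level filter, but markers of other cells were well above the floor too: 9 of 10 fibroblast markers other than collagens, 8 of 8 measured endothelial markers and 7 of 7 smooth muscle markers passed. In such RNA, fewer cells of a type and less RNA per cell cannot be told apart.

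The failed heart had at least 2-fold more mRNA of both type VIII chains and of Col14a1, Col1a2, Col3a1 and Col5a2, while most other collagens differed less. Of 41 members 23 passed the level filter. Among these, 7 were at least 2-fold higher in the failed heart and 2 were at least 2-fold lower, which is 30.4% and 8.70% of them, while of all 9317 genes that passed, 11.8% were higher and 3.14% lower. The 7 higher genes were Col8a1, Col8a2, Col14a1, Col1a2, Col3a1, Col5a2 and Col18a1, and the 2 lower ones were Col5a3 and Col11a2. In all, 18 of 23 lay above 0, against 64% of all genes that passed. The family as a whole differed little: the median difference over all 41 members was 0.26, against 0.15 over all genes, and 0.54 against 0.23 among those that passed. The calls depended on how the arrays were scaled. After quantile normalization 3 members were higher, Col8a1, Col8a2 and Col14a1, and the same 2 were lower, with 6.26% and 5.68% of all genes. As deposited, where the median of all probe sets shifted by -0.27 between the mRNA arrays, 6 were higher, without Col18a1, and 2 lower, with 6.1% and 6.86% of all genes.

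**Figure D1:**
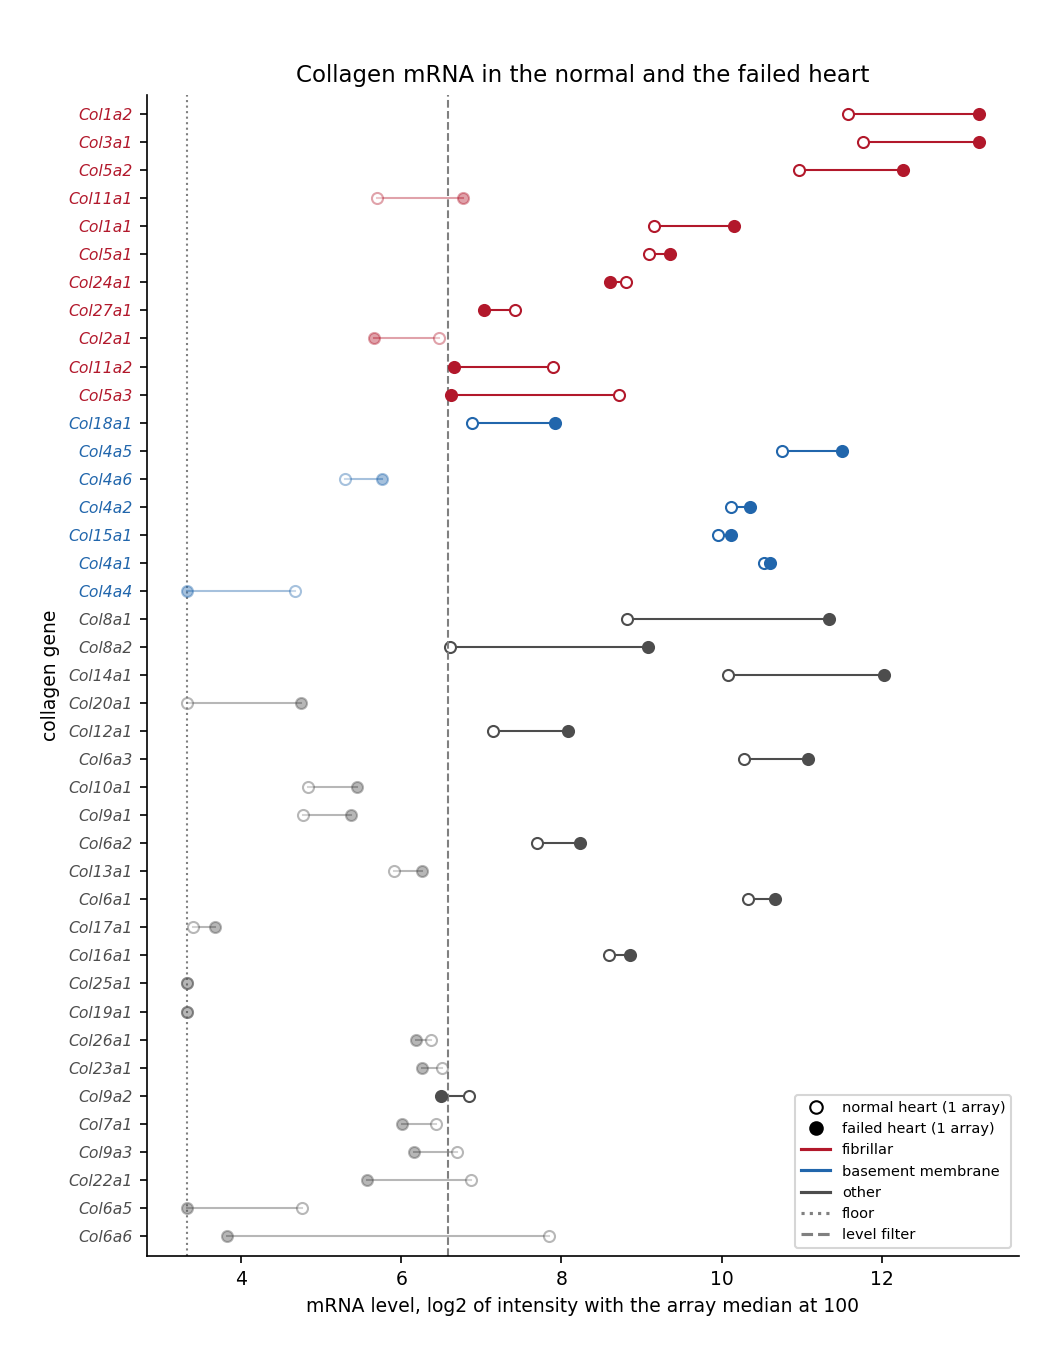
mRNA level of each of the 41 collagen genes (log2 of intensity with the array median at 100) in the normal heart (open point) and the failed heart (filled point), 1 array each, coloured by class and ordered within a class by the difference; pale rows did not pass the level filter, whose value for the mean of both arrays is the dashed line, and the dotted line is the floor of 10. Rows are read singly, since probes differ in brightness: Col8a1, Col8a2 and Col14a1 have the longest shifts to the right among genes that passed, and Col5a3 and Col11a2 shift to the left.

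Among the fibrillar collagens, the chains of the major fibrils, Col1a1, Col1a2 and Col3a1, had higher levels in the failed heart, with Col1a1 just short of 2-fold, and 2 minor chains were lower. Col1a2, which encodes the second chain of type I collagen, read 3056 in the normal heart and 9467 in the failed heart, a difference of 1.63 or 3.10-fold. Its other probe set read 680 and 1729, a difference of 1.35. Both probe sets of this gene therefore lay past 2-fold in the same direction. Col1a1, the first and more abundant chain of the type I protein, read 571 and 1135 at its chosen probe set, a difference of 0.99, just below the threshold. At its other probe set it read 242 and 1031, a difference of 2.09, so whether Col1a1 counts as 2-fold depends on the probe set, and with the mean over probe sets it was 1.54. Col3a1, the only chain of type III collagen, which forms fibrils together with type I, read 3488 and 9469, a difference of 1.44.

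Type V and XI collagens are minor fibrillar chains that lie inside the fibrils and take part in setting their width. They did not move as a group. Col5a2 read 1994 and 4917, 2.47-fold higher, with a difference of 1.30, and its second probe set differed by 1.39. Col5a1 read 546 and 653, a difference of 0.26, and its second probe set differed by -0.12; its sign also turned with quantile normalization, at -0.02. This chain is part of most type V molecules. Col5a3 read 420 in the normal heart and 98.7 in the failed one, 4.25-fold lower, a difference of -2.09. Thus the 3 chains of type V ran in both directions in the same pair of arrays. Col11a2 read 238 and 101, 2.35-fold lower, a difference of -1.23. Col11a1 read 51.9 and 109, a difference of 1.07, but did not pass the level filter, and its other probe sets differed by -0.01 and 1.15.

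Of the remaining fibrillar chains, Col24a1 differed by -0.19 and Col27a1 by -0.38. Col2a1, the collagen of cartilage, read 88.7 and 50.5 and did not pass the filter. Over the class, 3 of the 9 members that passed were higher and 2 lower, and the median over all 11 was 0.26. After quantile normalization Col1a2 differed by 0.95, Col3a1 by 0.77 and Col5a2 by 0.72, so that 0 fibrillar collagens were counted as higher, while Col5a3 at -2.20 and Col11a2 at -1.30 stayed lower.

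The type VIII collagens had the largest increases among the members that passed. Col8a1 and Col8a2 encode the 2 chains of a short-chain collagen that forms hexagonal networks, known from vessel walls and from Descemet's membrane of the eye. Col8a1 read 452 in the normal heart and 2598 in the failed heart, 5.75-fold higher, a difference of 2.52. Col8a2 read 97.8 and 539, 5.51-fold higher, a difference of 2.46. Both stayed past 2-fold under every scaling tried, with 2.14 and 2.34 after quantile normalization. Col10a1, the third short-chain collagen and a product of growth plate cartilage, read 28.5 and 43.5 and did not pass the filter. Because the pair moved together, the bases before the starts of both genes are shown, from RefSeq's annotation of GRCr8, at chr11:56246532-56246781 on the plus strand for Col8a1 and chr5:143870519-143870768 on the plus strand for Col8a2. Capitals mark the GC box letters GGGCGG or their reverse complement CCGCCC, and CAGAC, letters that Smad proteins are known to bind:
Col8a1: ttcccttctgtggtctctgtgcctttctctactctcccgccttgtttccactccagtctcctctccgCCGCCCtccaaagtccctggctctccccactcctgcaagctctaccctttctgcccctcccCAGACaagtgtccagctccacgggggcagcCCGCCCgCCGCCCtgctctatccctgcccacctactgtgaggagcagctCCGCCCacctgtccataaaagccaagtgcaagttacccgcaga
Col8a2: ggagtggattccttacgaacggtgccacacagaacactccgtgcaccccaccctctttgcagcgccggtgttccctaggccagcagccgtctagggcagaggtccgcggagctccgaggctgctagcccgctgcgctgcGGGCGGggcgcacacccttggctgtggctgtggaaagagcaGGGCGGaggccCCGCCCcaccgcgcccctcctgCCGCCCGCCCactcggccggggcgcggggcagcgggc
The Col8a1 stretch holds 4 GC boxes and that of Col8a2 holds 5, of which the last 2 overlap. Among all 27457 promoters of the table, 32.4% hold at least 1 GC box in the 250 bases before the start. Among the 32 collagens with an entry 56.2% do (18 genes). These include Col8a1, Col8a2 and Col18a1 of the higher members and both lower members, Col5a3 and Col11a2. CAGAC, on either strand, was in 34.4% of the 32 collagens and 42.8% of all promoters. A match is a description of the letters and not a binding site.

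Type I collagen's second chain offers a contrast in sequence. The first 110 bases of the window before the annotated start of Col1a2 (chr4:33518307-33518416, plus strand, GRCr8) are shown since it was the fibrillar collagen with the largest increase at the probe sets chosen, though with the mean over probe sets Col1a1 had 1.54 and Col1a2 1.49. Capitals mark CCAAT (here as its complement ATTGG), the TATA box letters TATAAA, and CAGAC (here as GTCTG):
Col1a2: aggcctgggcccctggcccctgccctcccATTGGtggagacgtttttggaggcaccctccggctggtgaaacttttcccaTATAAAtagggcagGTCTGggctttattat
The window of Col1a2 held CCAAT and TATAAA and no GC box letters. CCAAT was found in 28.1% of the collagens with an entry and 34.3% of all promoters, and TATAAA in 12.5% and 13.1%. Col5a2, also higher, had neither GC box, CCAAT nor TATAAA letters in its window but held CAGAC, as did Col1a2 and Col8a1. Of the 7 higher members, Col1a2, Col5a2, Col8a1, Col8a2 and Col18a1 have an entry and Col3a1 and Col14a1 do not, and none of these 4 motifs was in all 5 windows.

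Fibril-associated collagens lie on the surface of the fibrils. Col14a1, a member of this group found in tissue under tension, read 1079 in the normal heart and 4166 in the failed heart, 3.86-fold higher, a difference of 1.95, and its other probe set differed by 1.36. Col12a1, also fibril-associated, read 142 and 271, a difference of 0.94. Its other probe sets, both below the filter, differed by -1.34 and -1.64, so no direction holds over all of its probe sets. Col16a1 differed by 0.26, though by -0.0045 as deposited, and Col9a2 by -0.34. Of the 9 fibril-associated members 4 passed, and the only one past 2-fold was Col14a1.

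Type VI collagen forms beaded filaments near cells, from chains 1 and 2 with a further chain that varies. Col6a1 read 1285 and 1618, Col6a2 read 206 and 300, and Col6a3 read 1242 and 2165. The differences were 0.33, 0.54 and 0.80, all below 2-fold. The second probe set of Col6a2 read 12.1 and 214, a difference of 4.14, and did not pass the filter, and that of Col6a3 differed by -0.83. Col6a1 was at -0.11 after quantile normalization, so its direction depended on the scaling. The alternative chains Col6a5 and Col6a6 did not pass. Col6a6 read 229 in the normal heart and 14.2 in the failed one, a difference of -4.01, and Col6a5 read 27.2 and was at the floor in the failed heart.

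Of the basement membrane collagens, all but 1 of those that passed differed by less than 2-fold. Col4a1 and Col4a2, the chains of the ordinary type IV network, read 1480 and 1106 in the normal heart and 1559 and 1311 in the failed heart, with differences of 0.07 and 0.25. Both differences were below 0 when the values were used as deposited, at -0.19 and -0.02, and after quantile normalization, at -0.38 and -0.13. Col4a5, a chain of a second type IV network, read 1722 and 2897, a difference of 0.75. Col15a1 and Col18a1 are the multiplexins, whose C-terminal fragments restin and endostatin can be released. Col15a1 read 990 and 1113, a difference of 0.17, with 0.77 at its other probe set, -0.18 after quantile normalization and -0.098 as deposited. Col18a1 read 118 and 243, a difference of 1.04, but 0.31 at its other probe set and 0.67 with the mean over probe sets. It was the only basement membrane collagen at 2-fold (1 of 5 that passed), and none remained when the class was limited to type IV. The median of the class was 0.25.

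Col4a1 and Col4a2 are read from starts only 76 bases apart in opposite directions. The bases between them, chr16:84885521-84885596 in GRCr8 and read toward Col4a1, are shown since the pair shares this stretch and neither gene differed by 2-fold, with the GC box letters in capitals:
Col4a1: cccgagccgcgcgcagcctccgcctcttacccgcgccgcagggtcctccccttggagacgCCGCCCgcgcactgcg
Other collagens lie side by side in the gene order of GRCr8. Col3a1 and Col5a2 are neighbours and differed by 1.44 and 1.30, and Col6a1 and Col6a2 are neighbours and differed by 0.33 and 0.54. Col4a5 and Col4a6, which run in opposite directions from starts 1414 bases apart, differed by 0.75 and 0.46, the latter below the level filter.

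The other 18 members did not pass the mRNA level filter. Without the filter, 9 of 41 members were at least 2-fold higher and 6 lower, against 14.8% and 8.85% of all genes. Among the additional ones, Col20a1 was at the floor in the normal heart and read 26.8 in the failed heart. Col4a4, a chain of kidney glomerular basement membrane, read 25.6 and was at the floor in the failed heart, and Col22a1, known from muscle-tendon junctions, read 117 and 47.5. Col19a1 and Col25a1 were at the floor in both hearts. The membrane-bound collagens Col13a1, Col17a1, Col23a1 and Col25a1 all lay below the filter and differed by -0.25 to 0.36.

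Of the 14 collagens with several probe sets, 8 had the same sign at every set and 6 had opposite signs. Where 2 or more sets of a gene passed the filter, as for 8 genes, 7 had the same sign, and Col5a1 was the exception. The increases of Col1a1, Col1a2, Col5a2 and Col14a1 thus recurred at a second probe set, while Col3a1, Col8a1 and Col8a2 had only 1.

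**Figure D2:**
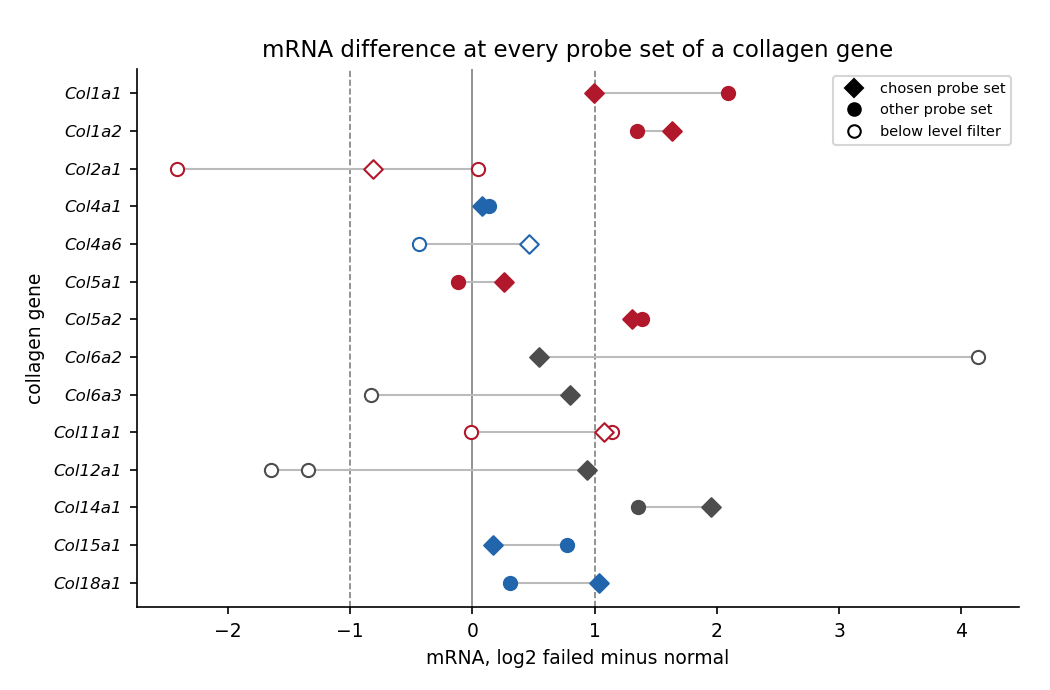
mRNA difference (log2 failed minus normal) at every probe set of the 14 collagen genes that have several; diamonds are the probe sets used for the gene, circles the others, open symbols lie below the level filter, and dashed lines mark 2-fold. The sets of Col1a2, Col5a2 and Col14a1 lie to the right of the upper line, and those of Col6a2, Col6a3 and Col12a1 lie far apart.

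Genes that act on collagen were examined in 4 lists, of which 45 genes were measured and 40 passed the filter. Of the 40, 13 were at least 2-fold higher and 0 lower, which is 32.5% beside the 11.8% and 3.14% of all genes, and the median difference of all 45 was 0.67. The excess rested on the scaling. As deposited 4 of the 40 were higher and 1 lower, or 10% and 2.5%, against 6.1% and 6.86% of all genes, and after quantile normalization 3 were higher and 1 lower, or 7.5% and 2.5%, against 6.26% and 5.68%, so the share higher then lay near that of all genes.

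The enzymes that cut and cross-link collagen outside the cell included the largest share. Of 9 measured, 7 passed and 5 were higher, but 2 were higher, Loxl1 and Loxl2, and Bmp1 was lower, both as deposited and after quantile normalization. Lox, the lysyl oxidase that starts cross-links between chains, read 258 and 560, a difference of 1.12. Its relatives Loxl1, Loxl2 and Loxl3 differed by 1.88, 1.45 and 1.08. Pcolce, which enhances removal of the C-terminal propeptide, read 383 and 813, a difference of 1.09, while Bmp1, the protease it assists, read 801 and 453, a difference of -0.82 with 1.42 at another probe set. Tgm2, a transglutaminase, differed by 0.56.

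Inside the cell, 18 of 20 measured genes of collagen synthesis and folding passed and 2 were higher, which is 11.1% and near the 11.8% of all genes, and 0 were higher as deposited or after quantile normalization. P4hb, the shared subunit of prolyl 4-hydroxylase, read 1136 and 2725, a difference of 1.26, and Plod2, a lysyl hydroxylase, read 831 and 1759, a difference of 1.08. Serpinh1, the collagen chaperone HSP47, read 752 and 1479, a difference of 0.98, with -0.34 at its lowest probe set. P4ha1, a catalytic subunit, differed by 0.51. Most of this list lay above 0, at 17 of 20, and its median was 0.47. Crtap, a partner of prolyl 3-hydroxylase, read 147 and 15.6 but did not pass the filter.

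Proteins that bind fibrils all passed the filter, and 5 of 11 were higher, but 2 as deposited and 1 after quantile normalization. Bgn, Ogn, Prelp and Aspn, which are small leucine-rich proteins of the matrix, differed by 1.33, 1.10, 1.36 and 1.01, and Fn1, fibronectin, by 1.14. Dcn and Lum, relatives that coat collagen fibrils, differed by 0.77 and 0.81, and Fmod by -0.32. Of 5 collagen receptors measured, 4 passed. Itgb1, the shared beta chain of collagen-binding integrins, read 1705 and 3882, a difference of 1.19, while Itga1 differed by -0.22, Ddr2 by -0.06 and Ddr1 by 0.94.

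**Figure D3:**
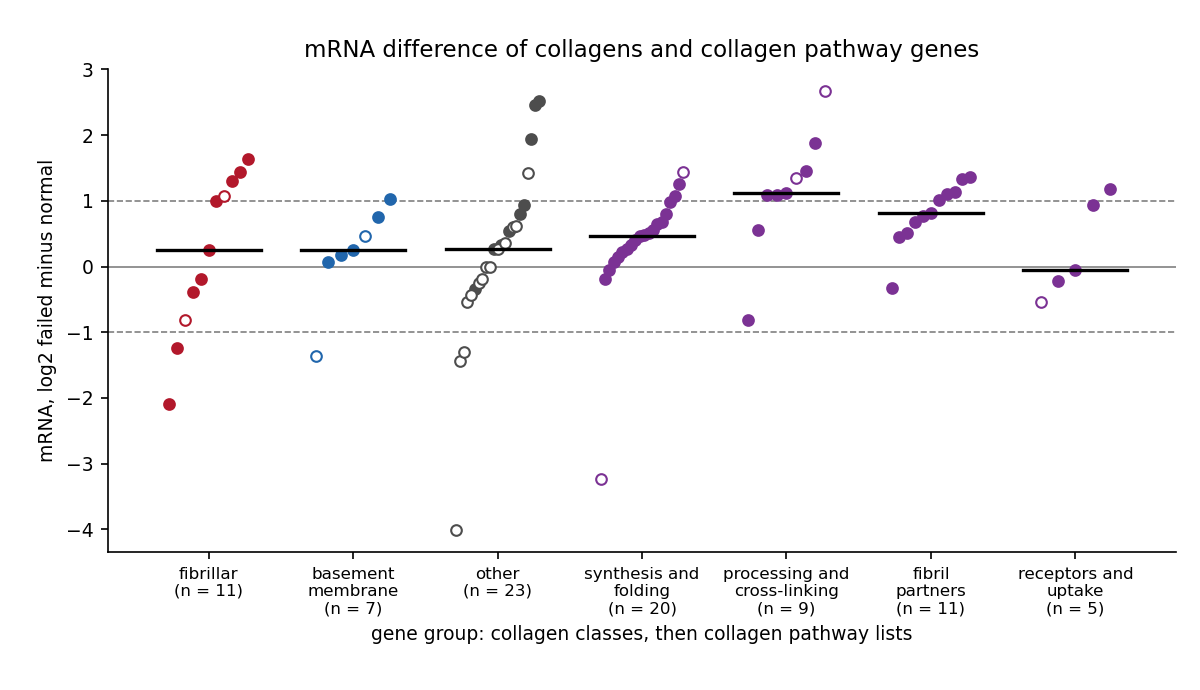
mRNA difference (log2 failed minus normal, 1 array per heart) of every measured gene in the 3 collagen classes and the 4 collagen pathway lists; filled points passed the level filter, black bars are medians over all measured genes of the group, and dashed lines mark 2-fold. The medians of the classes lie near 0.26, those of the processing and fibril partner lists at 1.12 and 0.81.

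Markers of other cells differed between the same 2 mRNA arrays. The summed level of the 10 fibroblast markers other than collagens was 37569 in the normal heart and 58593 in the failed one, a ratio of 1.56, with 3 of the 9 that passed at least 2-fold higher. Of the 9 cardiomyocyte markers, which summed to 118901 and 158397, 4 were higher and 1 lower. Over all genes that passed, 11.8% were higher and 3.14% lower. The macrophage and leukocyte markers summed to 3035 and 11040, with 3 of 8 that passed higher and Itgam at the floor in both hearts. Smooth muscle markers summed to 6629 and 3547, with 6 of 7 lower. Endothelial markers summed to 13822 and 12465, with a median difference of -0.55, since 5 of 8 differed by -0.72 to -0.54 while Vwf differed by 1.16. Pericyte markers summed to 6543 and 5935, with 0 of 5 that passed past 2-fold, and the 2 Schwann cell markers measured to 336 and 166, with Sox10 lower. A sum weighs each gene by the brightness of its probes. The part of these shifts in the collagen differences was not tested. Dcn, Lum and Ddr2 stand in both the fibroblast list and a collagen pathway list.

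Genomic DNA before immunoprecipitation gives the background of the marks. Of 21 collagens that passed the level filter of the pre-IP arrays, 0 differed by 2-fold, while of all genes that passed 3.96% were higher and 3.53% lower in the failed heart. The median difference of the 41 members was -0.12, against 0.01 over all genes. Across the 41 members the pre-IP levels of both hearts had a Spearman's rho of 0.82, equal to that over all genes. Some collagens below the filter did differ: Col26a1 read 10.1 in the normal heart and 44.7 in the failed one, Col20a1 read 11.5 and 47.0, and Col12a1 read 74.1 and 30.1.

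Enrichment of a mark is the log2 ChIP level less the log2 pre-IP level of that heart. The probes were designed for transcripts, so these values describe the DNA of transcribed sequence and not promoters, and all marks of a heart share its pre-IP array. By the median over all 41 members, collagens carried less H3ac, H4ac and K4me2 than the typical gene in both hearts. Their median H3ac enrichment was -0.34 in the normal heart and -0.37 in the failed one, against 0.05 and 0.04 over all genes. For H4ac the medians were -0.26 and -0.28, against 0.06 and 0.01, and for K4me2 they were -0.23 and -0.19, against 0.04 and 0.05. Among collagens that passed the mRNA level filter, K4me2 had medians of 0.10 and 0.04, against 0.04 and 0.09 over all such genes. Their medians were -0.16 and -0.09 for H3ac, against 0.16 and 0.15, and -0.14 and 0.03 for H4ac, against 0.17 and 0.14. Collagens below that filter had -0.68 and -0.90 for H3ac, -0.60 and -0.79 for H4ac and -0.73 and -0.69 for K4me2. All genes below it had -0.19 and -0.15, -0.22 and -0.30, and 0.04 and 0. Enrichment lay below 0 in both hearts at 20 of 41 members for H3ac, 20 for H4ac and 21 for K4me2, while over all genes this held for 31.9%, 32.9% and 31.5%. The low medians of all 41 members depended on the floor. With a floor of 50 in place of 10, the difference between the collagen median and that of all genes was 0 for both acetylations and K4me2 in the failed heart and for H4ac in the normal heart, and -0.11 for H3ac and -0.038 for K4me2 in the normal heart.

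K9me2 lay on the other side. Its median was 0.40 in the normal heart and 0.27 in the failed one, against -0.02 and -0.00 over all genes, and 22 of 41 members lay above 0 in both hearts, against 32.5% of all genes. In the normal heart the excess over all genes was 0.42, but 0.13 with the floor of 50 and 0.20 from ChIP levels alone. K20me3 had medians of 0.13 and 0.43, against 0 and -0.02 over all genes. For this mark 7 members (17.1%) lay below 0 in both hearts, against 30.8% of all genes. Above 0 in both hearts were 13 (31.7%), near the 29.6% of all genes. K27me2 had medians of 0.08 and 0.28, against 0 and 0.01 over all genes. K9me3 was at -0.30 in the normal heart and 0.11 in the failed one, against 0.03 and 0.00 over all genes, and K4me3 at -0.10 and 0.01, against 0.02 and -0.04.

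**Figure D4:**
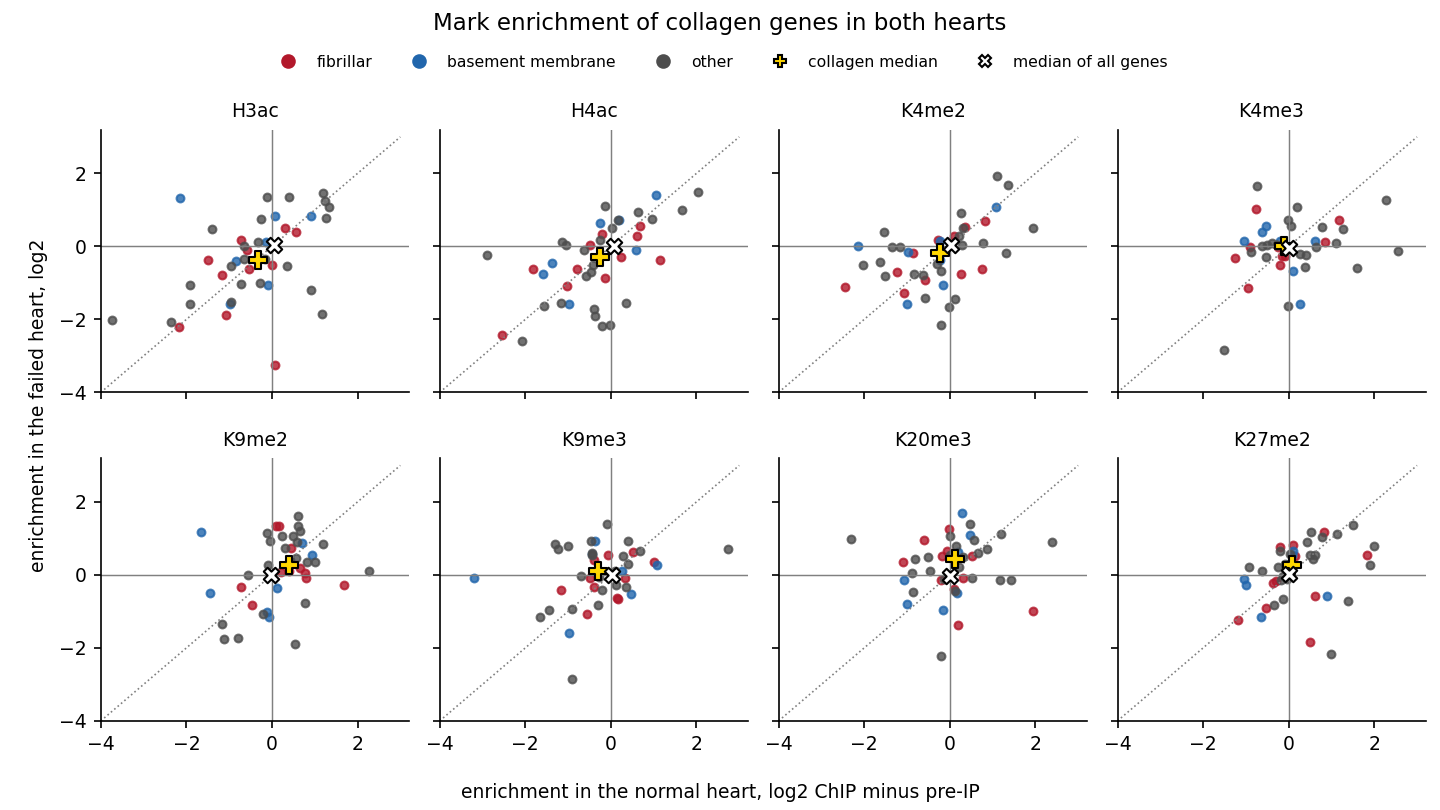
Enrichment (log2 ChIP minus pre-IP) of the 41 collagen genes in the normal heart (horizontal) and the failed heart (vertical), 1 panel per mark, coloured by class; the yellow cross is the collagen median, the white one the median of all genes, and the dotted line marks equal values. The collagen median lies below and left of that of all genes for H3ac, H4ac and K4me2, and above and right of it for K9me2.

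Counts by class were uneven for some marks. K4me3 enrichment lay below 0 in both hearts at 8 of 11 fibrillar, 0 of 7 basement membrane and 4 of 23 other collagens. Over the whole family this was 12 of 41 members, or 29.3%, near the 28.9% of all genes. The fibrillar medians were -0.20 in the normal heart and -0.05 in the failed one, against 0.02 and -0.04 over all genes. Those of the basement membrane class were -0.21 and 0.15. At 14 collagens, K4me3 could be set against the mean of the gene's other probe sets. The signs matched at 5 in the normal heart and 9 in the failed one. K9me2 lay above 0 in both hearts at 7 of 11 fibrillar, 2 of 7 basement membrane and 13 of 23 other collagens.

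Several collagens stood out in the same way in both hearts. Pooled over the 8 marks, enrichment was at least 2-fold up in both hearts at 13 of 328 combinations of member and mark (3.96%), and at least 2-fold down at 18 (5.49%). Over all genes these shares were 3.96% and 5.03%, so the shares of the family lay near the background. No level filter was applied to these counts. Col23a1, a membrane-bound collagen, held 5 of the 13, with 1.23 and 1.23 for H3ac, 2.04 and 1.49 for H4ac, 1.37 and 1.67 for K4me2, 1.19 and 1.11 for K20me3 and 1.49 and 1.37 for K27me2 in the normal and failed heart. Col7a1, the collagen of anchoring fibrils in skin, was up for H3ac at 1.18 and 1.45, for H4ac at 1.65 and 1.0, and for K27me2. Its pre-IP levels were low, at 39.4 and 57.6, and it did not pass the level filter for these marks. Col15a1 was up for H4ac at 1.06 and 1.40 and for K4me2 at 1.08 and 1.08, and its other probe set had 0.65 and 1.39 for H4ac and 0.26 and 1.13 for K4me2. Col13a1 was up for K4me2 at 1.10 and 1.94. Col9a2 was up for K4me3 at 2.28 and 1.27 but did not pass the level filter, with pre-IP levels of 23.7 and 63.2.

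At the low end were Col1a2, Col11a1, Col22a1, Col8a1 and Col4a5. Col1a2 had H3ac at -1.07 and -1.87, H4ac at -1.02 and -1.08 and K4me2 at -1.07 and -1.28 in the normal and failed heart, though its mRNA was 3.10-fold higher in the latter. Its other probe set had -0.39 and -0.42 for H3ac, and -1.38 and 0.22 for H4ac, so the low acetylation recurred there only in part. Col11a1 had H3ac at -2.16 and -2.21, H4ac at -2.54 and -2.43 and K4me2 at -2.45 and -1.11. Col22a1 had H4ac at -2.08 and -2.60. Col8a1 had H3ac at -3.73 and -2.0, and its normal H3ac level was at the floor, so the first value is an upper bound. Col4a5 was at the floor on 6 ChIP arrays of the normal and 5 of the failed heart, and its enrichments there are upper bounds too.

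**Figure D5:**
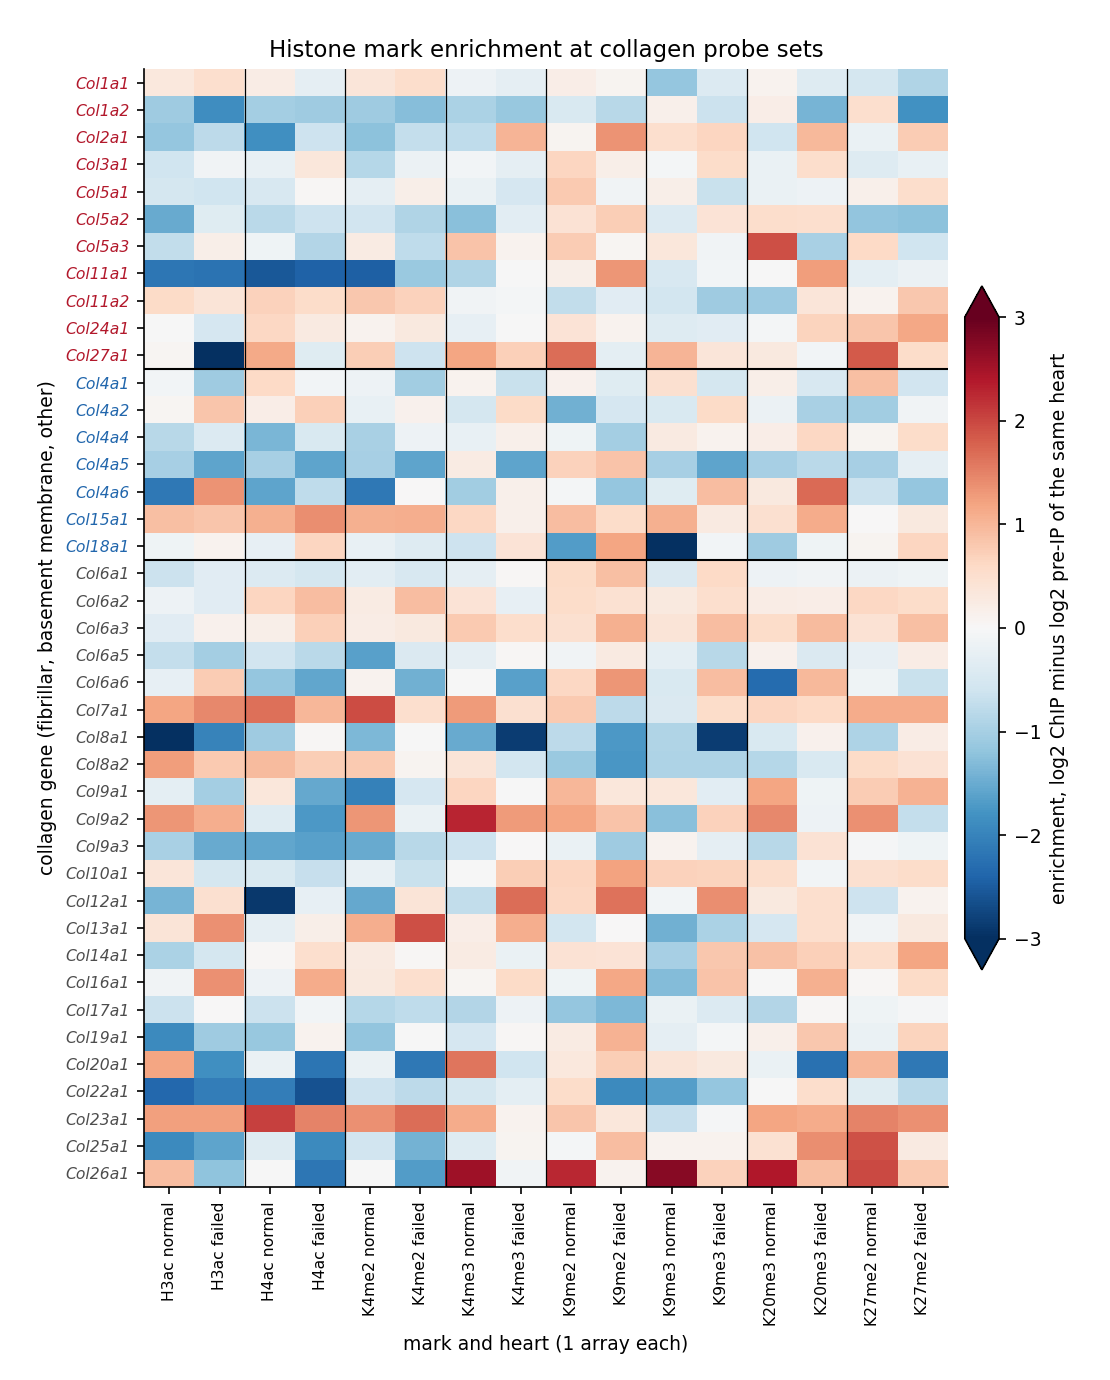
Enrichment of 8 marks (log2 ChIP less log2 pre-IP, colour scale from -3 to 3, red above and blue below 0) at the 41 collagen genes in the normal and the failed heart, 1 array per column; horizontal lines separate fibrillar, basement membrane and other collagens. Col23a1, Col15a1 and Col7a1 form mostly red rows, and Col1a2 and Col22a1 mostly blue ones.

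Mark enrichment differed between the hearts about as often at collagens as elsewhere in the upward direction. Of 158 combinations of member and mark that passed the level filter, 15 were at least 2-fold up in the failed heart and 4 at least 2-fold down, which is 9.49% and 2.53%, against 9.61% and 8.42% over all genes. They fell on 10 collagens. Of the 19, only 4 were also past 2-fold when ChIP levels were compared alone: H3ac at Col16a1, K9me2 at Col18a1, and K20me3 and K27me2 at Col1a2. At all 19 the pre-IP level differed in the opposite direction and so added to the difference.

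Col16a1 gained the most marks. Its enrichment went from -0.11 to 1.36 for H3ac, from -0.15 to 1.11 for H4ac, from -0.12 to 1.15 for K9me2 and from -0.01 to 1.06 for K20me3, with a pre-IP difference of -0.40. Its mRNA differed by 0.26. Marks known from active genes and marks known from less active ones were thus higher side by side at this gene. Its ChIP level of H3ac was 102 in the normal heart and 216 in the failed one.

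Col1a2 had the largest losses among combinations that passed. Its K27me2 enrichment went from 0.51 to -1.83, a difference of -2.33, with ChIP levels of 205 and 56.1, and K20me3 from 0.19 to -1.38, a difference of -1.57, with ChIP levels of 165 and 76.3. At its other probe set these differences were -0.27 and -0.59. The third loss was K27me2 at Col4a1, from 0.89 to -0.57, where the other probe set gained 0.44, and the fourth was K4me3 at Col23a1, from 1.11 to 0.11.

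Col18a1 had the largest gain that passed, in K9me2, from -1.67 to 1.18, a difference of 2.85, with ChIP levels of 62.1 and 313. Its other probe set differed by -0.38. K4me3 at Col18a1 went from -0.62 to 0.40, and again differed by -0.38 at the other probe set. Col4a2 gained K4me3 and K9me3 by 1.08 and 1.03, and Col6a1 gained K9me3 by 1.02. Col2a1 gained K4me3, K9me2 and K20me3 by 1.78, 1.26 and 1.56, and Col11a1 gained K9me2 and K20me3 by 1.16 and 1.28, while Col6a5 gained K4me2 by 1.20. At the other 2 probe sets of Col2a1, K4me3 differed by -0.94 and 0.45, K9me2 by -0.69 and 0.35 and K20me3 by 0.41 and 0.68. At those of Col11a1, K9me2 differed by -0.17 and -0.0035 and K20me3 by -1.55 and -0.64. Of Col2a1, Col11a1 and Col6a5, none had mRNA above the level filter.

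The collagens with the largest mRNA increases did not share a mark difference that passed the filters. At Col8a1, H3ac went from -3.73, with the ChIP level at the floor, to -2.0, K4me2 from -1.35 to -0.01, H4ac from -1.06 to 0.03 and K27me2 from -0.92 to 0.23. K9me2 went the other way there, from -0.78 to -1.72, as did K4me3 and K9me3, by -1.33 and -1.94 with a failed ChIP level at the floor. None of these passed the level filter, and the pre-IP level of Col8a1 differed by -0.88. At Col8a2, H3ac went from 1.26 to 0.79, H4ac from 0.96 to 0.75 and K9me2 from -1.12 to -1.75. The 2 type VIII genes thus lay on opposite sides of 0 for H3ac in both hearts and both below 0 for K9me2. At Col14a1, H4ac went from 0.04 to 0.49 and K9me3 from -1.0 to 0.80. At Col3a1, H3ac went from -0.59 to -0.09, H4ac from -0.22 to 0.35 and K9me2 from 0.65 to 0.18. H4ac was higher in the failed heart at the chosen probe sets of both of these genes, by less than 2-fold. At the other probe set of Col14a1, H4ac went from 0.30 to 0.27 and K9me3 from 0.05 to 0.22. At Col5a2, H3ac went from -1.50 to -0.37, K4me3 from -1.26 to -0.32 and K27me2 from -1.18 to -1.23. These differences did not pass the level filter. The other probe set of Col5a2 ran the opposite way for H3ac, from -0.66 to -2.35, and for K4me3, from 0.23 to -0.22. K27me2 went from 0.61 to -0.35 there. At the chosen probe set of Col1a1, enrichment stayed between -1.17 and 0.54 for all marks in both hearts. At its other probe set H3ac went from -0.28 in the normal heart to 1.23 in the failed one. The lower Col5a3 had K20me3 at 1.94 in the normal heart and -0.98 in the failed one, and the lower Col11a2 had -1.08 and 0.35.

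Across the 41 members, the Spearman's rho between mRNA difference and enrichment difference, both taken within a gene, ran from -0.10 for K20me3 to 0.27 for H4ac, against -0.02 to 0.02 over all genes. A rho over 41 genes varies more than one over 14217, so the ranges are not like for like. Enrichment of a member in the normal heart followed that in the failed heart more closely for some marks than for others. The rho between hearts was 0.59 for H4ac, 0.49 for H3ac, 0.47 for K4me2 and 0.42 for K27me2. It was 0.29 for K9me2, 0.23 for K9me3, 0.19 for K20me3 and 0.11 for K4me3. Over all genes these were 0.56, 0.53, 0.51, 0.44, 0.45, 0.30, 0.30 and 0.20 for these marks in turn. The points share the arrays and the pre-IP of their heart, and genes are not independent replicates. Within 1 heart, the chosen probe set was also compared with the mean of the others at the 14 genes with several. The rho of enrichment ran from -0.28 for K27me2 in the normal heart to 0.85 for K27me2 in the failed one. It was also below 0 for K9me3, at -0.07 and -0.25, and for normal K4me3, at -0.20, and above 0 elsewhere.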

How the data were processed

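Per the labels, biotinylated cDNA was made from total RNA (NuGEN Ovation), and DNA was fragmented, amplified by T7 transcription and labelled for Affymetrix rat expression arrays, 20 in all, with a left ventricle specimen for each experiment. The deposited intensity values are linear, 1 per probe set and array, and their mean without 2% at each end is 500.03 to 500.17 on every array; the sources used here name no tool. Of 31099 probe sets, 20826 have a single gene symbol in the array annotation and are not controls. All 41 members matched the current RefSeq gene table (GRCr8), which renamed 0.

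All arrays were rescaled to a common median of 100 (the deposited array medians are 189 to 415), floored at 10 (2.14% to 11.0% of probe sets per array) and log2 was taken. A gene is its probe set with the highest mean log2 mRNA. The level filter for mRNA was 96.2 on the rescaled scale. The number of arrays, 1 per group, limits the precision, so no test was run. A planned rho of mRNA level with enrichment is not given, since probe brightness enters the rank of levels over genes; the rho of differences stands in its place. Genes named are major collagens, every member past 2-fold or past the filter, and per mark the 3 largest differences each way and 3 highest means. Members and lists were chosen with earlier results of these data known. Promoters of 32 members come from a RefSeq table, searched on both strands over the 250 bases before the start. Python 3.11.15, pandas 2.3.3 and scipy 1.17.1 were used, and the script was tested on simulated data. Alternatives were the deposited scale, quantile normalization, a floor of 50, the mean over probe sets, no level filter, ChIP without pre-IP, and type IV alone.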

Additional observations from a re-analysis of the deposited data

How the results depend on the processing

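No paired analysis was possible because each group has 1 array and the labels give no replicate numbers; leaving out a replicate was not possible either. The cause of the changes below was not tested, except where fewer genes or values enter by construction. Values are medians of collagens minus all genes on the log2 scale, Spearman's rho, or counts at 2-fold.

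For mRNA, quantile normalization left 3 members higher, 0 fibrillar and 0 basement membrane collagens among them, and as deposited, with the mean over probe sets and with type IV alone the basement membrane count was 0. Without the filter 6 members were lower, 3 of them other and 1 basement membrane collagens, and with the floor of 50 the other collagens had 1. The mean over probe sets gave a median of -0.010 for the family and -0.11 for the other collagens. The pathway lists had 3 genes higher and 1 lower after quantile normalization, with a median of 0.34, 4 higher and 1 lower as deposited, and 1 lower without the filter. The pre-IP median was 0 with the floor of 50 and -0.0065 with the mean over probe sets.

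For enrichment, the floor of 50 gave medians of 0 for H3ac, H4ac and K4me2 in the failed heart and for H4ac and K9me3 in the normal heart, -0.11 for normal H3ac, -0.038 for normal K4me2, 0.13 for normal K9me2 and 0.28 for failed K20me3. ChIP alone gave -0.078 and -0.063 for normal and failed H4ac, 0.20 for normal K9me2, -0.050 for failed K9me3 and 0.19 for failed K20me3. The mean over probe sets gave -0.53 for normal H3ac and -0.13 for normal K9me3. For differences, the K4me3 median was 0.14 with ChIP alone and 0.12 with the mean over probe sets, and that of K9me2 turned to 0.10 with ChIP alone and 0.046 with the floor of 50. Counts over all marks were 45 up and 44 down without the filter, 3 up with ChIP alone, 9 up with the mean over probe sets and 8 down after quantile normalization.

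The rho of mRNA and mark differences was 0.27 for H3ac and 0.32 for K9me3 with the floor of 50, -0.14 for H3ac with the mean over probe sets and -0.27 for K20me3 with ChIP alone. Single differences reversed with ChIP alone to 0.031 (H3ac), 0.49 (K4me2) and 0.11 (K9me3) at Col26a1 and 0.043 (H4ac) and 0.080 (K4me2) at Col20a1, and with the floor of 50 to -0.0061 for K4me2 at Col9a1, 0.11 for K9me3 at Col26a1 and 0.39 for K9me3 at Col8a1. Another 76 single-gene values moved beyond the limits, and 3 of them, each under 2-fold before, turned sign with the mean over probe sets: mRNA of Col12a1 to -0.68 and of Col6a3 to -0.012, and K9me3 at Col4a1 to 0.20. The other 203 main and 320 single-gene comparisons moved by less than the set limits: 1.5 times for a count, 0.16 for a rho, and 0.77 for a gene or 0.12 for a median, from the SD of the pre-IP difference over members.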

Other observations

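Further collagens had large mark differences but did not pass the level filter, so that low intensities enter them. Of these 38 differences 13 have a ChIP level at the floor, named below as a floor value; where both hearts are at the floor, the difference is that of the pre-IP level alone. For H3ac these were Col4a6 at 3.49, with the normal ChIP level at the floor, Col8a1 at 1.72, also with a normal floor value, Col12a1 at 1.88, Col27a1 at -3.32, Col20a1 at -3.02 and Col26a1 at -2.11. For H4ac they were Col12a1 at 2.65 with a normal floor value, Col19a1 at 1.24, Col26a1 at -2.15 with floor values in both hearts, Col20a1 at -1.99 with a normal floor value, and Col9a1 at -1.89. For K4me2 they were Col12a1 at 1.94, Col9a1 at 1.52 and Col6a6 at -1.56, and, each with a normal floor value, Col4a6 at 2.18, Col20a1 at -1.95 and Col26a1 at -1.65.

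K4me3 differed by 2.40 at Col12a1, 1.20 at Col4a6, -2.67 at Col26a1, -2.20 at Col20a1 and, with a failed floor value, -1.84 at Col4a5. K9me2 differed by -2.45 at Col22a1, -2.17 at Col26a1 and -1.96 at Col27a1. K9me3 differed by 3.11 at Col18a1, 2.17 at Col16a1, 1.94 at Col9a2 with a normal floor value, -2.04 at Col26a1 and -1.94 at Col8a1 with a failed floor value, and by -1.0 at Col4a1, which passed. K20me3 differed by 3.28 at Col6a6 with a normal floor value, 1.44 at Col11a2, -2.92 at Col5a3, -2.03 at Col20a1 with floor values in both hearts, and -1.58 at Col9a2. K27me2 differed by 1.15 at Col8a1, -3.16 at Col20a1 and -2.09 at Col9a2. The pre-IP level of Col26a1, Col20a1, Col9a2 and Col27a1 differed by 2.15, 2.03, 1.41 and 1.24 and that of Col12a1 and Col4a6 by -1.30 and -1.0, opposite to most of these mark differences. By ChIP levels alone, 18 of the 38 were still past 2-fold in the same direction and 20 were not. Among those past it were H3ac at Col27a1 and Col4a6 with -2.09 and 2.49, K9me2 at Col22a1 with -2.07, K9me3 at Col18a1 with 2.60 and K20me3 at Col6a6 with 2.61. Among those not past it were H3ac at Col26a1 with 0.031 and K4me3 at Col20a1 with -0.17.

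Highest on average over both hearts were Col26a1, Col9a2 and Col27a1 for K4me3, Col26a1, Col12a1 and Col9a2 for K9me2, and Col26a1, Col27a1 and Col15a1 for K9me3. At Col26a1 these came mainly from the normal heart, with 2.55 for K4me3, 2.27 for K9me2, 2.74 for K9me3, 2.40 for K20me3 and 1.99 for K27me2, against -0.11, 0.10, 0.70, 0.91 and 0.78 in the failed heart. The normal pre-IP level of Col26a1 was 10.1, next to the floor of 10, so its normal enrichments and these ranks rest on a pre-IP value near the floor.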
